A study of Mus musculus with 18 samples.

Results

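The genes of the liver extracellular matrix and of its turnover were followed in liver RNA of 18 mice: the collagen chains, the laminin chains, the matrix metalloproteinases (MMPs) and the tissue inhibitors of metalloproteinases (TIMPs). They were taken by symbol, as every row whose name began with Col, a number and a chain number, with Lama, Lamb or Lamc and a number, or with Mmp and a number, and the names Timp1 to Timp4. This gave 80 of 19057 gene symbols, of which 44 were collagens, 11 laminins, 20 MMPs and 4 TIMPs. The remaining symbol, Col4a3bp, encodes a ceramide transfer protein that matched by its name alone, and the main counts below are given with and without it.

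The study asked whether microbiota from donors given alginate oligosaccharide (AOS) act on mice made diabetic with streptozotocin (STZ), a toxin of the insulin-producing beta cells of the pancreas. Livers came from ICR mice labelled as 10 weeks old, with 3 mice in each of 6 groups. Con mice were controls given a regular diet and saline, and AOS mice received AOS at 10 mg/kg. STZ mice received STZ, and STZ+AOS mice received STZ and AOS. A10-FMT mice received STZ and then gut microbiota of AOS-treated donors (10 mg/kg), while Con-FMT mice received STZ and a transplant from control donors, so that all 4 of these groups share the toxin. The transplanted material was pooled over donors, and STZ can act on cells other than beta cells. AOS and STZ+AOS are known here from their labels only. The labels number the libraries but do not describe the animals further, so p-values measure the spread between these libraries.

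Fibrillar collagens (types I, III and V) give connective tissue its tensile strength, and in liver they are made mainly by hepatic stellate cells and portal fibroblasts. Type IV collagen and laminins, heterotrimers of an alpha, a beta and a gamma chain, build basement membranes, while collagens XV and XVIII sit at the border of the basement membrane and carry the precursor of endostatin-like fragments. MMPs cut these proteins, either after secretion or, for the membrane-type enzymes, at the cell surface, and TIMPs bind their catalytic site. Scarring of the liver is the setting in which these genes are best known, with more fibrillar collagen and more Timp1. Because whole liver was sequenced, fewer cells of a type and less RNA per cell cannot be told apart.

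Levels are RPKM, read counts divided by gene length and library size, as the authors deposited them, and changes are log2 differences of RPKM + 1, which understates the change of genes near 0. Read depth could be compared only in relative terms: the steps between the lowest values of 9 genes, out of 35 examined, gave relative depths from 0.933 to 1.083. The liver label was borne out by albumin, Alb, at 24367, 37253 and 29413 RPKM in the Con mice. No pair of libraries was identical, the closest pair being AOS mice 2 and 3 (r = 0.9961 across genes). STZ mouse 3 stood apart from its group: its distance from the Con mean was 53.7 against 90.6 and 89.1 for STZ mice 1 and 2, in log2 units over the tested genes, and close to the 50.2 to 59.0 of the A10-FMT mice. STZ+AOS mouse 3 also stood apart, since it held transcripts of pancreatic acinar cells: chymotrypsinogen Ctrb1 was at 36.45 RPKM there and at 0.00 and 0.09 RPKM in STZ+AOS mice 1 and 2. Calls that were lost or gained without one of these libraries are named where they occur.

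Of the 80 genes, 29 reached 1 RPKM in at least 3 libraries and were tested among 10822 genes: 15 collagens, 5 laminins, 6 MMPs, 2 TIMPs and Col4a3bp. Of these, 18 had a library at 1 RPKM in every group and 11 did not. Mmp7 reached that level only in STZ and STZ+AOS mice, Mmp2 in STZ, STZ+AOS and A10-FMT mice, and Lama3 in Con, AOS, STZ and A10-FMT mice, so counts over the tested genes are not counts over the families. Col13a1 did so in 1 AOS mouse and otherwise in STZ and STZ+AOS mice only. Lamb2 reached it only in STZ, STZ+AOS and A10-FMT mice, and Lamb3 only in STZ+AOS, A10-FMT and Con-FMT mice. Col5a1 reached it only in STZ, STZ+AOS and Con-FMT mice. These genes and the 4 named before them thus entered the test wholly or mainly through groups in which they are high. Counts that hold them are descriptions. Of the remaining 51, 18 never reached 0.1 RPKM (13 collagens, 4 MMPs and Timp4), and 25 of the 80 were at 0 in some library, while none was at 0 in all of them.

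Collagen XVIII dominated the liver collagen transcripts. Col18a1, at chr10:77052178-77166548 on the minus strand of GRCm38, was at 123, 167 and 147 RPKM in Con, at 188, 202 and 159 RPKM in STZ, and at 183, 185 and 153 RPKM in STZ+AOS. It stood at 195, 172 and 171 RPKM in AOS, at 178, 167 and 169 RPKM in A10-FMT and at 201, 172 and 159 RPKM in Con-FMT. Con mice 1 and 3 lay below every other library, and the Con and STZ ranges overlapped. The log2 change in STZ was 0.33 ± 0.13 (adjusted p = 0.061), which was 0.43 (adjusted p = 0.0216) without STZ mouse 3 and 0.06 (adjusted p = 0.689) with libraries rescaled to a common median ratio. In STZ+AOS against AOS it was -0.05 ± 0.13 (adjusted p = 0.797), and -0.29 (adjusted p = 0.0495, called lower) with that rescaling. Col18a1 made up 75% ± 2.12 (SD, n = 3) of the summed collagen RPKM in Con and 82.3% ± 2.41 in STZ, a share of level that is per length. The collagens other than Col18a1 summed to 48.2 ± 2.15 RPKM in Con, 48.5 ± 3.01 in AOS, 39.0 ± 2.51 in STZ, 36.5 ± 4.55 in STZ+AOS, 42.3 ± 1.89 in A10-FMT and 40.8 ± 3.26 in Con-FMT. The MMPs summed to 39.0 ± 0.53, 39.8 ± 1.88, 49.7 ± 2.63, 48.9 ± 5.36, 42.3 ± 5.0 and 47.0 ± 4.70 RPKM in the same order of groups, and the TIMPs to 6.40 ± 0.43, 6.28 ± 0.61, 9.56 ± 1.57, 10.1 ± 2.14, 8.32 ± 0.70 and 8.07 ± 1.18 RPKM. Laminin sums stayed between 7.41 ± 1.45 RPKM in Con-FMT and 8.94 ± 1.19 RPKM in STZ+AOS. The MMP and TIMP sums were thus highest in STZ and STZ+AOS on the deposited scale, on which most genes read slightly higher in STZ. The factors of the median-ratio rescaling were 0.84, 0.92 and 0.90 in Con and 1.08, 1.11 and 1.01 in STZ. These sums were not rescaled, so part of their difference may be that shift. They also lean on a few abundant genes and were not tested.

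**Figure D1:**
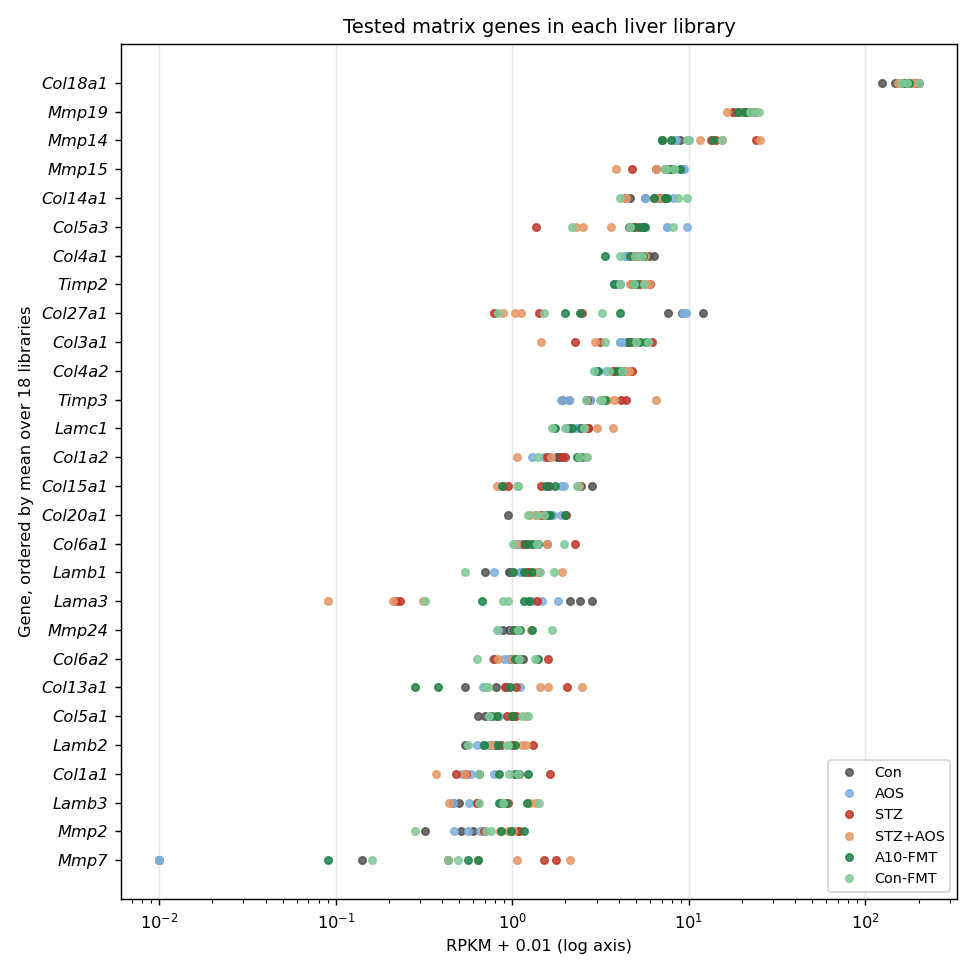
RPKM + 0.01 on a log axis of the 28 tested matrix genes, 1 point per library colored by group, ordered by mean over 18 libraries. Col18a1 lies far above the rest, while Col27a1, Lama3 and Mmp7 show the widest separation between groups.

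Below Col18a1 the order of mean level over the 18 libraries was Mmp19 (20.5 RPKM), Mmp14 (12.1), Mmp15 (7.51), Col4a3bp (7.08), Col14a1 (6.51), Col5a3 (5.06), Col4a1 (4.98), Timp2 (4.67) and Col27a1 (4.37). Mmp19, a secreted protease, spanned 16.5 to 24.8 RPKM over all libraries, and its log2 change was -0.05 ± 0.11 (SE) in STZ against Con. Its exons overlap those of Tmem198b and Gm47093 on the other strand, and strand was not stated for the counting. Col14a1, a collagen that binds the surface of fibrils, spanned 4.04 to 9.77 RPKM with both extremes in the Con-FMT group. From Col14a1 down to Col27a1 neighbours in the order had overlapping ranges.

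STZ mice were compared with Con mice to see which matrix genes moved with the toxin. Of the 29 tested genes, 9 were called at an adjusted p under 0.05 (limma), 6 higher and 3 lower, or 31% of those tested, beside a background of 36.1% of all 10822 genes (30.8% higher and 5.25% lower). Without Col4a3bp these were 8 of 28, or 28.6%. Col27a1, Lama3 and Col15a1 fell, and Mmp7, Mmp14, Mmp2, Timp3, Timp2 and Col4a3bp rose. The median log2 change was 0.16 over the members tested and 0.21 over all genes tested, so that most genes read slightly higher in STZ on the deposited scale. When each library was scaled to remove that shift, 5 members were called, with Mmp7 higher and Col27a1, Lama3, Col15a1 and Col4a2 lower, so the split went from 6 higher and 3 lower to 1 higher and 4 lower. These 5 are 17.2% of the tested members, beside 24.4% of all genes under that scaling. In a fit of all 19057 genes without the filter, 11 of the 80 were called (13.8%, background 19.3%).

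STZ+AOS mice against AOS mice repeat the question in other animals, since the comparison shares no library with STZ against Con. There 12 of the 29 were called, 8 higher and 4 lower, or 41.4% beside a background of 37.9% (31.8% higher and 6.11% lower), and 11 of 28 (39.3%) without Col4a3bp. Both contrasts called Col27a1, Lama3, Mmp7, Mmp14, Timp2, Timp3 and Col4a3bp, in the same direction each time. These 7 genes are 77.8% of the first list and 58.3% of the second, while over all tested genes the calls in common were 69.6% and 66.2%. Without Col4a3bp they are 6 genes, 75% and 54.5%, and Mmp7, tested through its high groups, is among them. Under the scaling that removes the shift, 8 were called in STZ+AOS against AOS, 2 higher and 6 lower, or 27.6% beside 24.5% of all genes. Without the filter 16 of the 80 were called there (20%, background 21.5%). No member passed the test of the difference between the contrasts (limma, 0 called, background 0%, and 2 at an unadjusted p under 0.05, background 5.4%).

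Among the structural chains, the largest fall was that of Col27a1, a fibrillar collagen of cartilage and developing tissue. Its gene lies at chr4:63214004-63334991 on the plus strand of GRCm38. It was at 7.56, 12.05 and 9.18 RPKM in Con and at 1.4, 0.78 and 2.46 RPKM in STZ, and at 9.59, 9.20 and 9.47 RPKM in AOS and 1.03, 1.11 and 0.87 RPKM in STZ+AOS. No treated library reached any library of its control group. The mean fell from 9.60 ± 2.27 to 1.55 ± 0.85 RPKM in STZ, a 6.20-fold lower level, with a log2 change of -2.09 ± 0.28 (SE, adjusted p = 0.000143), and by 9.39-fold in STZ+AOS (log2 change -2.38 ± 0.28, adjusted p = 6.92e-05). Without STZ mouse 3 the change was -2.34, and without STZ+AOS mouse 3 it was -2.33.

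Sequences upstream of Col27a1, of Mmp7 and of Mmp14, the chain and the enzymes with the widest changes in both STZ contrasts, are shown so that their starts can be compared. Each run is the 250 bases before the RefSeq transcript start on GRCm38.p6, 5′ to 3′ on the gene's own strand, which is plus for all 3. Capitals mark GGGCGG (the GC box), TGACTCA (the AP-1 element), TATAAA (the TATA box) and CCAAT, each searched on both strands, so that the reverse complement of each also stands in capitals. The windows are chr4:63215162-63215411 (Col27a1, downstream of the first GENCODE start of that gene), chr9:7691840-7692089 (Mmp7) and chr14:54431348-54431597 (Mmp14), and none overlaps an annotated GENCODE exon.
Col27a1: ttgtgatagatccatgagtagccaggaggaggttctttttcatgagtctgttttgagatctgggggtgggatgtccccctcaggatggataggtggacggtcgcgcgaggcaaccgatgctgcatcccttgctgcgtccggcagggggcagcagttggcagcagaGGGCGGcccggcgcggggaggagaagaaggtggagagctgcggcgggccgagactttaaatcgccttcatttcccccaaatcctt
Mmp7: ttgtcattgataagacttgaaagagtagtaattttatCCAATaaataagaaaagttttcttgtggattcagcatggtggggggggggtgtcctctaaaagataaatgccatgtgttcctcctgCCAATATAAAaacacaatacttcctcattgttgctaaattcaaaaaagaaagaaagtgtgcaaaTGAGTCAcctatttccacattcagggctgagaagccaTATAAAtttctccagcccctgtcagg
Mmp14: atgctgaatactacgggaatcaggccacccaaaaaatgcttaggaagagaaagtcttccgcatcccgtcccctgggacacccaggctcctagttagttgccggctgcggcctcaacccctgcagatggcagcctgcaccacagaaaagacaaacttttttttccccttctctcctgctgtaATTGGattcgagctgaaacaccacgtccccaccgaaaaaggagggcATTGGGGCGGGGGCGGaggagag
The Col27a1 window holds 1 GC box, 85 to 80 bases before the start. Mmp7 holds TATAAA at 26 to 21 and at 123 to 118 bases before the start, and the AP-1 element at 63 to 57. It holds CCAAT at 213 to 209 and at 127 to 123, the latter sharing a base with the upstream TATAAA. Mmp7 has another RefSeq window, chr9:7692091-7692340, which holds 1 CCAAT and no TATAAA or TGACTCA. Mmp14 holds no TATAAA and has 2 adjoining GC boxes within 19 bases of the start, with CCAAT on the other strand at 69 to 65 and 23 to 19. Over 32851 promoter windows of the same length, 32.7% hold GGGCGG, 4.46% TGACTCA, 12.4% TATAAA and 33.8% CCAAT, and over the 66 windows of 59 members with a sequence the shares were 50%, 7.58%, 15.2% and 30.3%. A match is a description of letters, and binding was not measured.

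Lama3, the alpha chain of the epithelial laminins, fell in both STZ contrasts. It was at 2.12, 2.82 and 2.41 RPKM in Con and at 0.21, 0.22 and 1.37 RPKM in STZ. The values were 1.29, 1.81 and 1.46 RPKM in AOS and 0.08, 0.20 and 0.30 RPKM in STZ+AOS. STZ mouse 3 held most of what remained in its group, and the groups did not overlap in either contrast. The log2 change was -1.18 ± 0.22 (adjusted p = 0.0013) in STZ and -1.08 ± 0.22 (adjusted p = 0.00228) in STZ+AOS, and -1.5 in STZ without mouse 3. The filter let Lama3 in mainly through groups in which it is high, so its fall is a description. In the fit of all genes without a filter the adjusted p was 0.00382 and 0.00587. Col27a1 and Lama3 followed each other over the 18 libraries (Pearson r = 0.90, and 0.69 on deviations from group means), a description over points that share depth and mouse.

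Col15a1, a basement membrane collagen of vessels, was at 2.83, 1.60 and 2.45 RPKM in Con against 0.93, 0.87 and 1.45 RPKM in STZ. The ranges did not overlap, though Con mouse 2 and STZ mouse 3 were close. Its log2 change was -0.65 ± 0.24 (adjusted p = 0.0442), and in STZ+AOS against AOS it was -0.39 ± 0.24 (adjusted p = 0.205), where STZ+AOS mouse 1 was at 2.39 RPKM. The call in STZ was lost in 6 of 14 alternatives, with an adjusted p of up to 0.157, among them the omission of Con mouse 1 or 3 or of STZ mouse 1 or 2. Col5a3, a minor chain of type V collagen, was at 5.56, 4.59 and 5.52 RPKM in Con, and at 1.36, 4.86 and 5.17 RPKM in STZ, where the low value came from mouse 1. In AOS it was at 9.81, 7.5 and 7.51 RPKM and in STZ+AOS at 2.27, 2.51 and 3.61 RPKM, which did not overlap (log2 change -1.30 ± 0.34, adjusted p = 0.00919). Against Con its change in STZ was -0.50 ± 0.34 (adjusted p = 0.268).

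**Figure D2:**
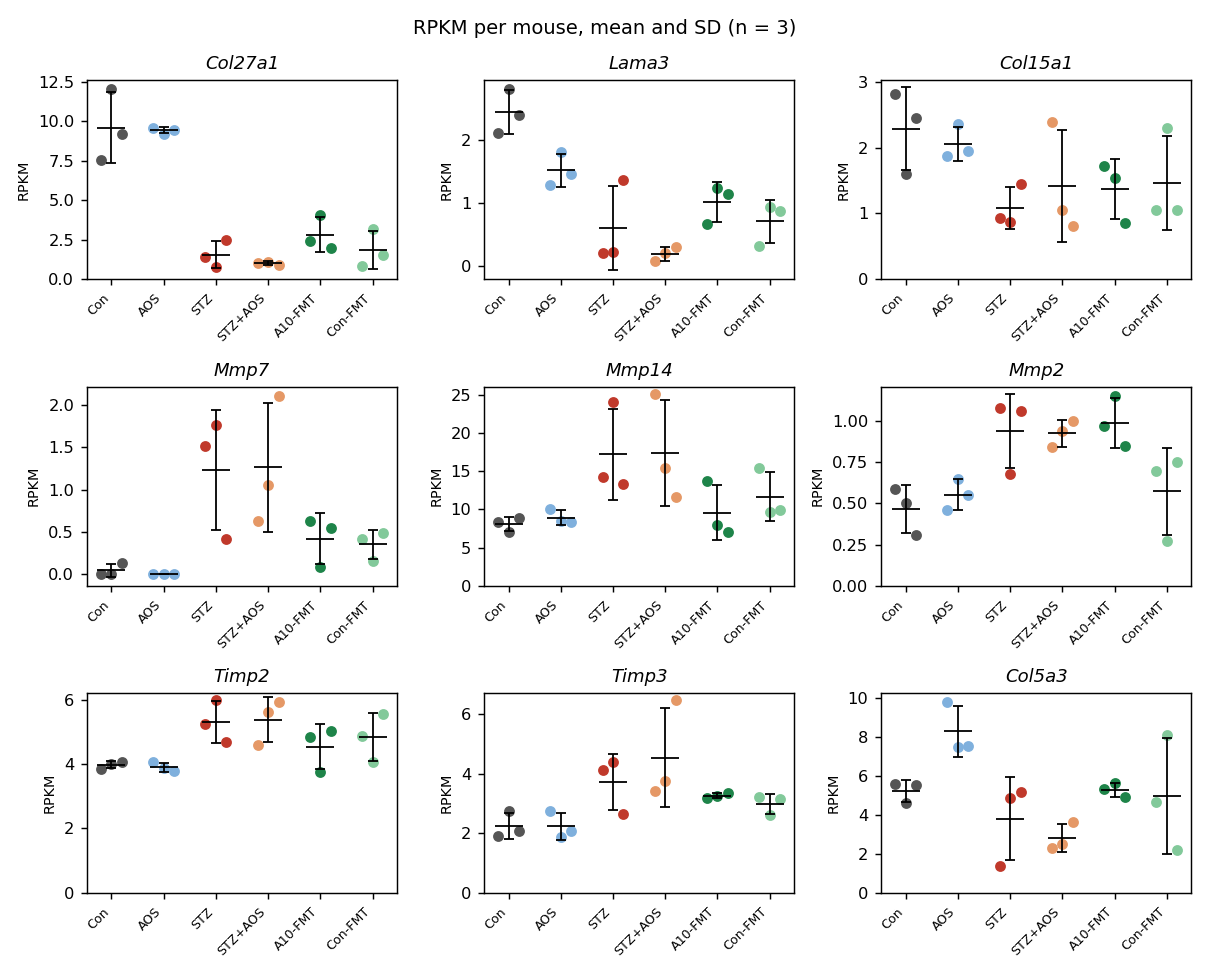
RPKM of 9 matrix genes in each mouse, with the mean and SD of 3 mice, on axes that start at or just below 0. Col27a1 and Lama3 lie low in both STZ groups, Mmp7 lies near 0 in Con and AOS, and the FMT means lie between those of Con and STZ for these 3 genes.

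Chains of the basement membrane gave a mixed picture. The type IV chains Col4a1 and Col4a2 share a head-to-head start on chromosome 8, where their first exons overlap by annotation, and they followed each other over the libraries (r = 0.78, and 0.72 on deviations from group means, n = 18). Col4a2 was at 4.55, 4.23 and 4.24 RPKM in Con, 3.74, 4.73 and 3.73 RPKM in STZ, 3.38, 3.02 and 3.01 RPKM in AOS and 4.57, 4.18 and 4.47 RPKM in STZ+AOS. The AOS mice were lowest of these groups and overlapped with none of the other 3. The log2 change was -0.08 ± 0.12 in STZ against Con and 0.39 ± 0.12 (adjusted p = 0.0164) in STZ+AOS against AOS. Once the shift was removed, these became -0.30 (adjusted p = 0.0398) and 0.19 (adjusted p = 0.177), so the call moved from one contrast to the other, and it was also lost without AOS mouse 2 or 3. Col4a1 changed by -0.10 ± 0.13 in STZ against Con and by 0.21 ± 0.13 in STZ+AOS against AOS, neither of them called. Lamc1, the gamma chain of most laminins, was at 2.03, 2.42 and 2.12 RPKM in Con and 2.69, 2.62 and 2.67 RPKM in STZ, with no overlap, yet the log2 change of 0.20 ± 0.12 was not called. In STZ+AOS its change of 0.33 ± 0.12 was called (adjusted p = 0.0445) and was 0.22 (adjusted p = 0.174) without mouse 3, the library with acinar transcripts, and 10 of 14 alternatives lost it. Lamb1, the beta chain that pairs with it, was not called, with values of 0.69, 0.96 and 0.95 RPKM in Con and 1.4, 1.20 and 1.23 RPKM in STZ and a change of 0.29 ± 0.18. Lamb2 and Lamb3 spanned 0.53 to 1.30 and 0.43 to 1.4 RPKM over all libraries, with changes of 0.27 ± 0.12 (adjusted p = 0.094) and 0.24 ± 0.18 (adjusted p = 0.294) in STZ. In STZ+AOS the change of Lamb3 was 0.28 ± 0.18 (adjusted p = 0.222), and 0.51 (adjusted p = 0.0228) without mouse 3. Lamb3 reached 1 RPKM only in STZ+AOS, A10-FMT and Con-FMT mice. It was thus tested through groups in which it is high, and the gained call is a description. The alpha chains Lama1, Lama2, Lama4 and Lama5 lay under the filter, the highest value being 0.93 RPKM for Lama1.

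Of the fibrillar collagens, Col1a1, Col1a2 and Col3a1, the chains of types I and III, were not called in any of the 10 contrasts. Col3a1 was at 4.60, 4.80 and 4.43 RPKM in Con, 6.17, 2.24 and 3.12 RPKM in STZ and 1.44, 4.81 and 2.92 RPKM in STZ+AOS. The STZ mice thus fell on both sides of the Con mice, which lay close together. Its log2 change was -0.29 ± 0.28 (adjusted p = 0.431). Col1a2 was at 1.87, 1.79 and 1.82 RPKM in Con and 1.99, 1.57 and 1.90 RPKM in STZ, a change of -0.01 ± 0.17. Col1a1 was at 1.04, 0.64 and 1.08 RPKM in Con and 1.63, 0.54 and 0.47 RPKM in STZ, a change of -0.08 ± 0.20. Col5a2, which lay below the filter, spanned 0.19 to 0.69 RPKM, and Col6a1, Col6a2 and Col6a3, the beaded-filament chains, spanned 1.00 to 2.26, 0.62 to 1.58 and 0.26 to 0.66 RPKM.

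Group means of Col3a1 ran from 3.06 RPKM in STZ+AOS to 5.20 RPKM in A10-FMT, and several of these genes varied together from mouse to mouse. On deviations from group means over 18 libraries, Col3a1 followed Col1a2 (r = 0.84), Col1a1 (r = 0.83) and Col6a1 (r = 0.78), and, outside the family, Sparc (r = 0.72) and the stellate cell receptor Pdgfrb (r = 0.70), the highest of 13 marker and matrix genes compared. Over those 13 the median r was 0.48, and it was 0.51 for the cholangiocyte marker Krt19, 0.30 for Des, 0.25 for Acta2 and 0.05 for Tagln. Over the 18 libraries without that adjustment, Col3a1 and Sparc had an r of 0.55, Pdgfrb 0.49 and Dcn -0.16. Other members went the opposite way, among them the fibrillar chain Col5a3 (r = -0.59), Col15a1 (r = -0.49), Mmp14 (r = -0.41) and Col13a1 (r = -0.40). The points share library, depth and base composition. STZ mouse 1 was the highest STZ mouse for Col3a1, Col1a1 and Col6a1, and STZ+AOS mouse 1 was the lowest of its group for all 3.

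**Figure D3:**
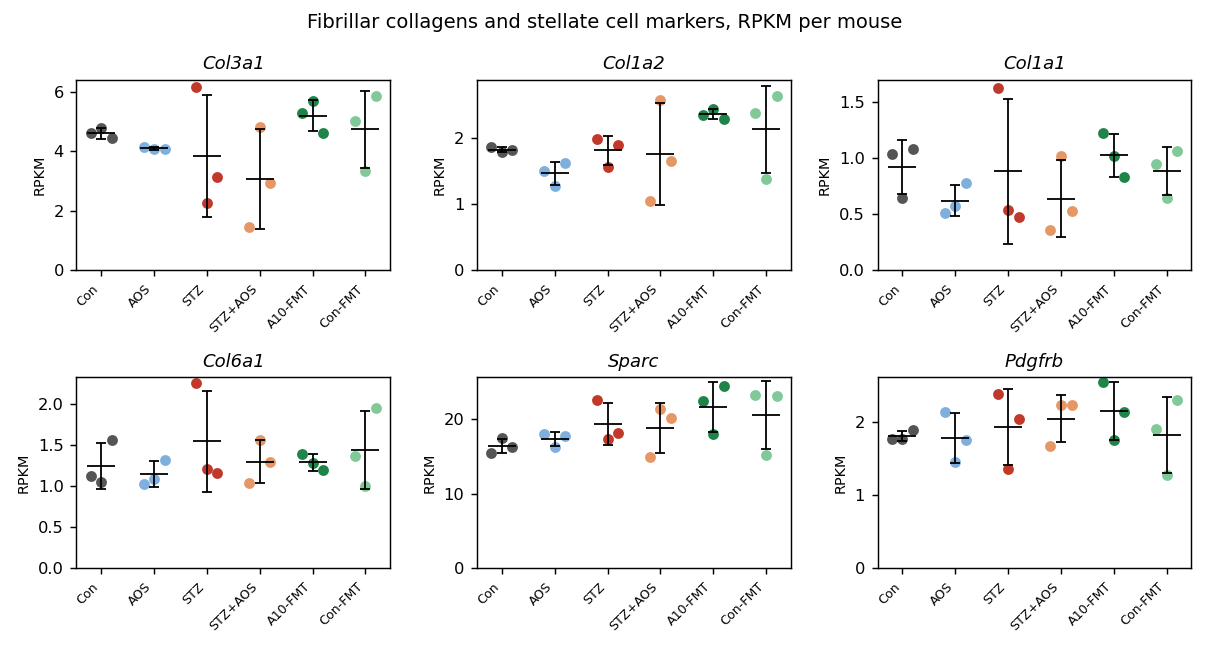
RPKM per mouse of 4 collagen chains and of Sparc and Pdgfrb, with the mean and SD of 3 mice, on axes from 0. Within STZ, STZ+AOS and Con-FMT the mice spread widely and the same mice tend to lie high or low in several panels.

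Of the 6 tested MMPs, Mmp7, Mmp14 and Mmp2 were called higher in STZ, and in STZ+AOS Mmp7 and Mmp14 were called higher and Mmp15 lower. Beside them 36.1% of all genes were called in STZ (30.8% higher) and 37.9% in STZ+AOS (31.8% higher). Mmp7 and Mmp2 were tested through groups in which they are high, so this count is a description. Mmp7, matrilysin, is a small secreted protease of epithelium, at chr9:7692090-7699585 on the plus strand. It was at 0.00, 0.00 and 0.13 RPKM in Con and 0.00 in all 3 AOS mice, and at 1.51, 1.76 and 0.42 RPKM in STZ and 0.63, 1.05 and 2.11 RPKM in STZ+AOS. There was no overlap in either contrast. The log2 change was 1.04 ± 0.25 (adjusted p = 0.00501) in STZ and 1.13 ± 0.25 (adjusted p = 0.00315) in STZ+AOS. The gene passed the filter through these groups alone, which the change itself decided. In the fit of all genes without a filter the adjusted p was 0.0124 and 0.00782. A library at 0 here means listed at 0, and no fold is given. Its exons overlap those of AV064505 on the other strand.

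Mmp14 is the membrane-type protease that activates Mmp2 at the cell surface, and lies at chr14:54431612-54445364 on the plus strand. It was at 8.35, 7.02 and 8.91 RPKM in Con and at 14.2, 24.1 and 13.4 RPKM in STZ, and at 10.02, 8.49 and 8.30 RPKM in AOS and 25.1, 15.4 and 11.6 RPKM in STZ+AOS. Every STZ and STZ+AOS mouse exceeded every mouse of its control group. The mean was 2.13-fold higher in STZ (log2 change 0.96 ± 0.28, adjusted p = 0.0151) and 1.94-fold higher in STZ+AOS (0.82 ± 0.28, adjusted p = 0.0299). With the shift removed the changes were 0.72 (adjusted p = 0.0616) and 0.60 (adjusted p = 0.114), so both calls depend on the scaling. The call in STZ was also lost without STZ mouse 2, at 24.1 RPKM the highest of its group, and that in STZ+AOS in 7 of 14 alternatives, among them the omission of AOS mouse 2 or 3 or of STZ+AOS mouse 1. Mmp2, gelatinase A, was at 0.59, 0.50 and 0.31 RPKM in Con and 1.08, 0.68 and 1.06 RPKM in STZ, a 2.01-fold higher mean (log2 change 0.40 ± 0.13, adjusted p = 0.0257) that was 0.30 (adjusted p = 0.109) with the shift removed and 0.35 (adjusted p = 0.0627) without STZ mouse 3. Without the filter its adjusted p was 0.0328 in STZ. Mmp15, another membrane-type protease, was at 9.22, 9.20 and 9.33 RPKM in AOS and 3.88, 6.51 and 7.90 RPKM in STZ+AOS. It fell there by 0.57 ± 0.18 on the log2 scale (adjusted p = 0.0234), a call lost in 5 of 14 alternatives, among them the omission of any 1 AOS mouse or of STZ+AOS mouse 1, and without the latter the change was -0.33 (adjusted p = 0.112). In STZ against Con its change was -0.14 ± 0.18 (adjusted p = 0.56).

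Other MMPs lay below the filter. Mmp9 and Mmp13 stayed at or under 0.20 RPKM in all libraries, and Mmp8, the neutrophil collagenase, reached 0.30 RPKM only in STZ+AOS mouse 1 and 0.28 RPKM in mouse 3. Mmp12, the macrophage elastase, was at 0.22, 0.04 and 0.45 RPKM in Con and 1.28, 0.37 and 0.19 RPKM in STZ. Mmp11 was at 0.31, 0.21 and 0.27 RPKM in Con and 1.16, 1.36 and 0.28 RPKM in STZ, where mouse 3 sat at the Con level. In the fit without a filter the change in STZ was 0.57 ± 0.17 for Mmp11 (adjusted p = 0.0299) and 0.34 ± 0.20 for Mmp12 (adjusted p = 0.269), and in STZ+AOS 0.26 ± 0.17 (adjusted p = 0.284) and 0.42 ± 0.20 (adjusted p = 0.159).

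TIMPs were present as Timp2 and Timp3 in the main. Timp3, the inhibitor bound to the matrix, was at 1.91, 2.74 and 2.08 RPKM in Con, 4.11, 4.40 and 2.65 RPKM in STZ, 2.75, 1.88 and 2.08 RPKM in AOS and 3.41, 3.75 and 6.47 RPKM in STZ+AOS. STZ mouse 3 lay within the Con range, while STZ+AOS did not overlap with AOS. The log2 change was 0.53 ± 0.19 (adjusted p = 0.0368) in STZ, which was 0.33 (adjusted p = 0.165) with the shift removed and was not called in 9 of 15 alternatives, and 0.74 ± 0.19 (adjusted p = 0.00661) in STZ+AOS, which was 0.51 (adjusted p = 0.0276) without mouse 3. Timp3 lies at chr10:86300372-86349506, with exons that overlap Syn3. Timp2 was at 3.86, 4.02 and 4.08 RPKM in Con and 5.25, 6.01 and 4.70 RPKM in STZ, without overlap (log2 change 0.34 ± 0.12, adjusted p = 0.0384), but its change was 0.12 (adjusted p = 0.454) with the shift removed, and the call was lost in 9 of 15 alternatives, among them the omission of any 1 Con mouse. In STZ+AOS its change of 0.38 ± 0.12 (adjusted p = 0.0222) was 0.31 (adjusted p = 0.0751) without mouse 3 and 0.17 (adjusted p = 0.247) with the shift removed, and 7 of 14 alternatives lost the call. Timp1 was at 0.24, 0.10 and 0.17 RPKM in Con, 0.74, 0.37 and 0.44 RPKM in STZ, 0.17, 0.16 and 0.08 RPKM in AOS and 0.26, 0.28 and 0.00 RPKM in STZ+AOS. The STZ mice lay above the Con mice, but the gene was under the filter. In the fit without a filter its change was 0.37 ± 0.11 in STZ (adjusted p = 0.0352) and 0.05 ± 0.11 in STZ+AOS (adjusted p = 0.848). Of the 51 members under the filter, that fit called 5 in STZ (Timp1, Mmp11, Lama5 and Col11a2 higher, Col6a6 lower). In STZ+AOS it called 6, all higher (Lama5, Col11a2, Mmp8, Col7a1, Col9a2 and Col11a1), some of them by as little as 0.02 on the log2 scale. The same fit called larger shares of all genes, 19.3% in STZ and 21.5% in STZ+AOS. Timp4 was at 0 in all but 3 libraries.

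**Figure D4:**
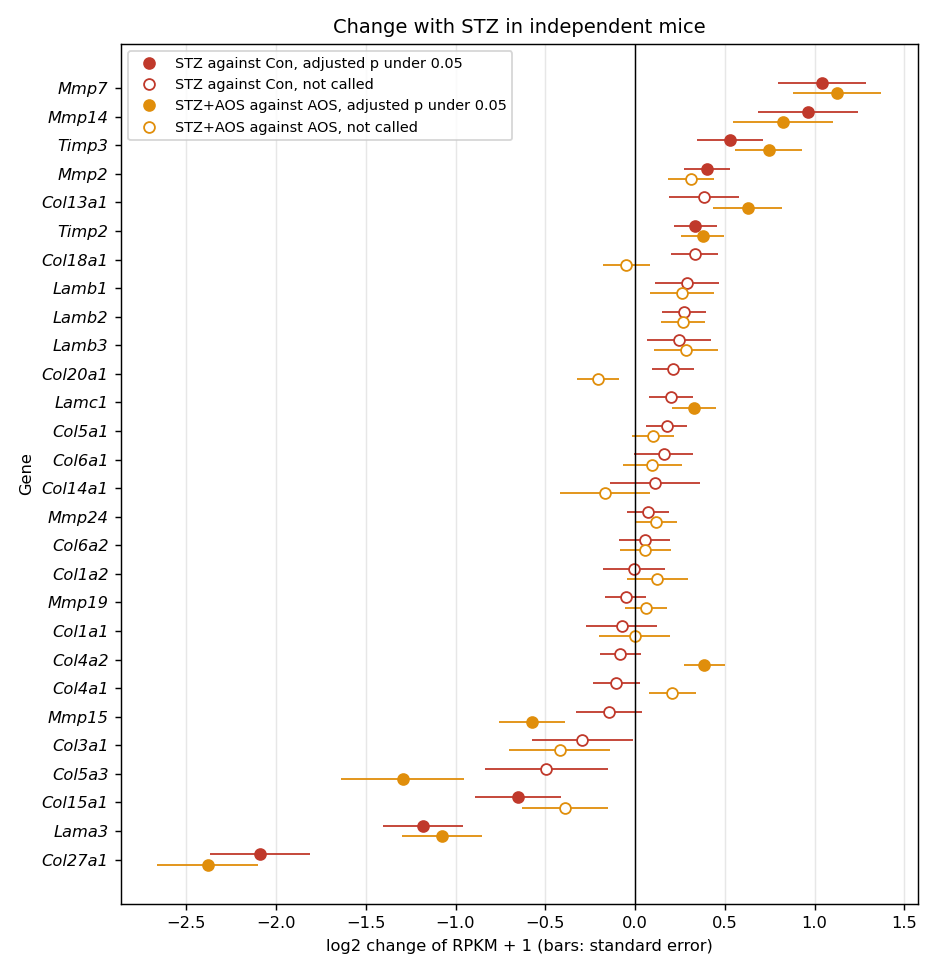
Log2 change of RPKM + 1, with the standard error, of the 28 tested matrix genes in STZ against Con and in STZ+AOS against AOS, which share no mice; filled points passed an adjusted p under 0.05. Col27a1, Lama3, Mmp7, Mmp14, Timp2 and Timp3 were called in both contrasts.

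Transplanted mice were compared with STZ mice to see whether the microbiota moved these genes. No member was called in A10-FMT against STZ (limma, 0 of 29, background 0.49%, and 4 at an unadjusted p under 0.05, background 18.9%), nor in Con-FMT against STZ (0 of 29, background 0.166%, and 4 at an unadjusted p under 0.05, background 18.8%). These contrasts share the STZ mice. Mmp7 was at 0.63, 0.08 and 0.55 RPKM in A10-FMT and 0.42, 0.15 and 0.48 RPKM in Con-FMT, all below STZ mice 1 and 2, with A10-FMT mouse 2 inside the Con range. Its change was -0.62 ± 0.25 (adjusted p = 0.203) and -0.68 ± 0.25 (adjusted p = 0.167). Without STZ mouse 3 these became -0.91 (adjusted p = 0.0219) and -0.97 (adjusted p = 0.0151), and Lama3 in A10-FMT became 0.72 (adjusted p = 0.0209), so that 2 members in A10-FMT (6.9%) and 1 in Con-FMT (3.45%) passed, beside 9.25% and 12.2% of all genes without that mouse. Mmp7 was tested because it is high in STZ libraries, so its fall from STZ is a description.

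Mmp14 was at 13.73, 7.90 and 7.08 RPKM in A10-FMT and 15.41, 9.72 and 9.90 RPKM in Con-FMT. The A10-FMT mice overlapped with the STZ mice through mouse 1 only, and the change of -0.79 ± 0.28 did not pass (adjusted p = 0.159). Col13a1, a transmembrane collagen, was at 0.37, 0.27 and 0.96 RPKM in A10-FMT against 0.90, 2.02 and 1.04 RPKM in STZ (log2 change -0.59 ± 0.19, adjusted p = 0.135). In STZ+AOS it was at 1.59, 1.43 and 2.46 RPKM and its change from AOS was 0.63 ± 0.19 (adjusted p = 0.0191), or 0.47 (adjusted p = 0.0855) without mouse 3 and not called either without AOS mouse 2 or 3. Since the filter let it in mainly through its high groups, its fall from STZ is a description, and without the filter the adjusted p in STZ+AOS was 0.0357. Mmp2 was at 0.97, 1.15 and 0.85 RPKM in A10-FMT and 0.70, 0.27 and 0.75 RPKM in Con-FMT, where its change from STZ was -0.31 ± 0.13 (adjusted p = 0.219), and Lamc1 changed by -0.27 ± 0.12 in Con-FMT (adjusted p = 0.257). A10-FMT against Con-FMT gave no call (limma, 0 called, background 0%, and 1 at an unadjusted p under 0.05, background 2.26%). The gene with the smallest p was Mmp2 (0.35 ± 0.13, adjusted p = 0.999).

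The inhibitors gave no call here. Timp3 was at 3.19, 3.26 and 3.35 RPKM in A10-FMT and 3.22, 2.60 and 3.14 RPKM in Con-FMT, inside the range of the STZ mice apart from Con-FMT mouse 2. Timp2 was at 4.85, 3.75 and 5.05 RPKM in A10-FMT and 4.89, 4.07 and 5.58 RPKM in Con-FMT. Timp1, under the filter, was at 0.61, 0.46 and 0.35 RPKM in A10-FMT, above the Con mice, and at 0.28, 0.09 and 0.34 RPKM in Con-FMT, which overlapped with them. Col3a1 was at 5.29, 5.69 and 4.63 RPKM in A10-FMT and 5.01, 3.32 and 5.87 RPKM in Con-FMT, and its changes from STZ were 0.44 ± 0.28 (adjusted p = 0.42) and 0.30 ± 0.28 (adjusted p = 0.597).

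Against Con, 4 members, Col4a3bp included, were called in A10-FMT, 2 higher and 2 lower (background 17.1%, with 14.7% higher and 2.39% lower), and 3, again with Col4a3bp, in Con-FMT, 1 higher and 2 lower (background 18.1%, with 16.3% higher and 1.78% lower). With the shift removed, 4 were called in A10-FMT (Col27a1, Lama3, Col4a1 and Col4a2) and 3 in Con-FMT (Col27a1, Lama3 and Col4a2), all lower, beside 9.42% and 6.62% of all genes called under that scaling, and the higher calls of Mmp2 and Col4a3bp were lost. Col27a1 stayed low, at 2.40, 4.05 and 1.97 RPKM in A10-FMT and 0.82, 3.20 and 1.5 RPKM in Con-FMT, all under the lowest Con mouse. The changes were -1.49 ± 0.28 (adjusted p = 0.00338) and -1.96 ± 0.28 (adjusted p = 0.000704). Lama3 stayed low as well, at 0.66, 1.24 and 1.15 RPKM in A10-FMT and 0.31, 0.93 and 0.88 RPKM in Con-FMT. Its changes were -0.78 ± 0.22 (adjusted p = 0.0271) and -1.03 ± 0.22 (adjusted p = 0.0083). The Lama3 call in A10-FMT was lost in 8 of 14 alternatives, among them the fit without the filter. Lama3 was tested mainly through groups in which it is high, so both of its falls from Con are descriptions. Mmp2 was 0.44 ± 0.13 higher in A10-FMT (adjusted p = 0.0302), a call lost in 9 of 13 alternatives, among them the omission of any 1 mouse. Mmp2 reached 1 RPKM only in STZ, STZ+AOS and A10-FMT mice. It was thus tested through groups in which it is high, and this rise is a description. Col4a3bp was higher in both.

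**Figure D5:**
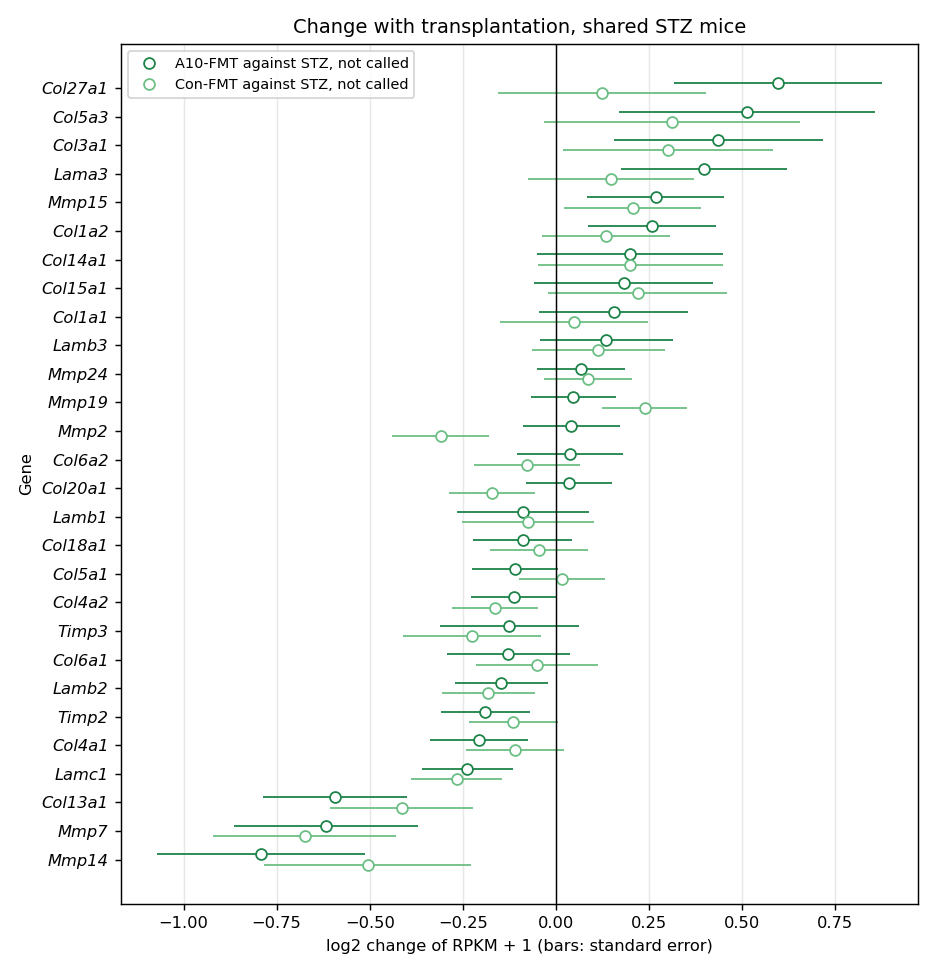
Log2 change of RPKM + 1, with the standard error, of the 28 tested matrix genes for each transplanted group relative to the same 3 STZ mice, A10-FMT in dark and Con-FMT in light green. All points are open, since none passed an adjusted p under 0.05.

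AOS alone was compared with Con, and STZ+AOS with STZ, to see the effect of the oligosaccharide. AOS against Con called none (limma, 0 of 29, background 0.00924%, and 4 at an unadjusted p under 0.05, background 7.22%), and STZ+AOS against STZ called none (0 of 29, background 0%, and 0 at an unadjusted p under 0.05, background 6.07%). The smallest p values in AOS were those of Col4a3bp (0.27 ± 0.08, adjusted p = 0.524), Col4a2 (-0.37 ± 0.12, adjusted p = 0.542) and Col4a1 (-0.32 ± 0.13, adjusted p = 0.651). Col4a1 was at 5.96, 4.93 and 6.35 RPKM in Con and 4.34, 4.40 and 4.36 RPKM in AOS, without overlap. In STZ+AOS against STZ the smallest were Col4a3bp (0.15 ± 0.08), Col20a1 (-0.19 ± 0.11) and Lama3 (-0.35 ± 0.22), each with an adjusted p of 0.811.

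Genes around the matrix were read against the share of all tested genes called, 36.1% in STZ and 37.9% in STZ+AOS. These lists and the markers below are given on the deposited scale only. On it the median log2 change over all tested genes was 0.21 in each STZ contrast. Whether the rises in these lists hold with that shift removed was not tested. Of the collagen folding, processing and cross-linking genes 2 of 16 tested (12.5%) were called in each STZ contrast, a share under the background, with Colgalt1, which glycosylates collagen, higher by 0.74 ± 0.13 and Ppib, a prolyl isomerase of the secretory pathway, lower by 0.73 ± 0.16 on the log2 scale. The summed level was 939 RPKM in Con, 953 in AOS, 913 in STZ, 894 in STZ+AOS, 900 in A10-FMT and 926 in Con-FMT, led by P4hb. Of the other matrix glycoproteins and proteoglycans 3 of 18 rose in STZ (16.7%, beside 30.8% of all genes) and in STZ+AOS 6 rose (33.3%, beside 31.8%) and 2 fell. Smoc1 rose by 0.99 ± 0.16, Nid1 by 0.70 ± 0.15 and Dcn by 0.72 ± 0.18. Their sum was 1876 RPKM in Con, 1943 in AOS, 1817 in STZ, 1881 in STZ+AOS, 1881 in A10-FMT and 1945 in Con-FMT, led by Vtn.

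Receptors for collagen and laminin rose in 5 of 9 tested in each STZ contrast (55.6%, beside 30.8% and 31.8% of all genes), with Itgb1, the shared beta chain of these integrins, up by 0.61 ± 0.09, Bcam by 0.66 ± 0.15 and Dag1 by 0.55 ± 0.14. Their sum was 69.6 RPKM in Con, 73.4 in AOS, 96.9 in STZ, 97.3 in STZ+AOS, 79.0 in A10-FMT and 81.9 in Con-FMT, led by Itgb1. In the TGF-beta axis, the signal that drives matrix production, 6 of 14 rose (42.9%, beside the same 30.8% and 31.8%) and 1 fell in each STZ contrast. Tgfbr2 rose by 1.17 ± 0.23, Ctgf by 1.33 ± 0.28 and Smad4 by 0.69 ± 0.17, while Ltbp4 fell by 0.58 ± 0.17. The sum was 69.3 RPKM in Con, 77.8 in AOS, 106 in STZ, 111 in STZ+AOS, 83.1 in A10-FMT and 83.5 in Con-FMT, led by Eng.

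Of the other regulators of matrix proteolysis, 5 of 11 rose in STZ (45.5%, beside 30.8%), and in STZ+AOS 3 rose (27.3%, beside 31.8%) and 1 fell. Furin, which cuts the membrane-type MMP precursors, rose by 0.82 ± 0.16, Ctsl by 1.52 ± 0.40 and Cd44 by 0.80 ± 0.21. The sum was 1747 RPKM in Con, 1977 in AOS, 2493 in STZ, 3345 in STZ+AOS, 2080 in A10-FMT and 2267 in Con-FMT, led by Plg. Over all these lists and the markers below, 38 of 121 tested genes (31.4%) were called in each STZ contrast, under the 36.1% and 37.9% of all genes, and none when either transplanted group was set against STZ (limma, 23 or 19% at an unadjusted p under 0.05 in each, beside 18.9% and 18.8% of all genes).

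Markers of the cells that could carry these transcripts were read beside them, and no listed marker was at 0 in all libraries. The counts stand beside a background of 36.1% called in STZ and 37.9% in STZ+AOS, and on lists this short a share says little. Hepatic stellate cell markers were called in 2 of 10 (20%, Hand2 and Cygb, higher) in STZ and in 1 of 10 (10%) in STZ+AOS, with a sum of 60.7 RPKM in Con, 72.2 in AOS, 80.1 in STZ, 92.5 in STZ+AOS, 77.3 in A10-FMT and 90.2 in Con-FMT, led by Ecm1. Of the myofibroblast or smooth muscle markers 1 of 4 was called in each, in STZ Acta2 with a rise of 0.69 ± 0.20, and the sum was 6.70, 7.06, 10.1, 8.64, 9.23 and 7.57 RPKM in the same order of groups, led by Tagln. Sinusoidal endothelial markers were called in 3 of 11 in STZ, all higher (Kdr, Ehd3 and Pecam1), and 2 in STZ+AOS, with sums of 87.9, 98.0, 113, 124, 103 and 115 RPKM, led by Clec4g. The part of these cells in the changes of matrix genes was not tested.

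Cholangiocyte markers, which bear on epithelial genes such as Lama3 and Mmp7, had 1 of 3 called, with Sox9 lower by 0.73 ± 0.24 in STZ, and none in STZ+AOS (limma, 0 at an unadjusted p under 0.05). Their sums were 32.8, 22.9, 29.8, 28.5, 29.5 and 25 RPKM, led by Spp1. Kupffer cell markers had 2 of 8 called in STZ, with Marco up by 2.79 ± 0.63 and Timd4 by 0.79 ± 0.25, and 1 in STZ+AOS, with sums of 105, 123, 197, 163, 133 and 135 RPKM, led by C1qa. Neutrophil markers had none of 3 called in STZ (limma, 1 at an unadjusted p under 0.05) and S100a9 and Retnlg higher in STZ+AOS, where mouse 1 had the highest sum of 21.6 RPKM, led by S100a8. The group sums were 7.96, 3.70, 3.80, 12, 2.76 and 5.86 RPKM. Their part was not tested either.

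Mesothelial markers had none of 2 called in either contrast (limma, 0 at an unadjusted p under 0.05), and summed to 4.26, 2.53, 4.62, 1.73, 4.10 and 3.89 RPKM, led by Upk3b. The STZ mean rested on mouse 1, at 7.86 RPKM against 2.86 and 3.14 RPKM in STZ mice 2 and 3. Erythroid markers had 1 of 6 called in each STZ contrast, lower each time. In STZ the called gene was Alas2, lower by 3.19 ± 0.58. These markers summed to 2407, 3523, 1875, 1650, 2921 and 6007 RPKM, led by Hba-a1. The Con-FMT mean rested on mouse 1, at 9977 RPKM against 3648 and 4396 RPKM in Con-FMT mice 2 and 3. Of the 7 pancreatic acinar markers only Cela1, which liver also expresses, passed the filter, and it fell by 2.55 ± 0.30 in STZ. That list summed to 3.48, 5.20 and 72.3 RPKM in STZ+AOS mice 1, 2 and 3, and its group means were 36.9, 39.2, 6.39, 27.0, 9.48 and 9.73 RPKM. Hepatocyte markers had 5 of 7 called in each STZ contrast, 2 higher (Cps1 and Tat) and 3 lower (Serpina1a, Ttr and Apoa1), and summed to 49205, 53199, 42769, 43412, 50112 and 43361 RPKM, led by Alb.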

How the data were processed

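Liver RNA of 18 mice in 6 groups was sequenced. RPKM values per gene were computed by the authors and deposited as 1 table; the submitters' processing notes name Bowtie 0.12.2 and mm10, the study's methods name another aligner, and strand was not stated. Symbols were matched to GENCODE release 21 for mouse (GRCm38), which held all 80 members, and promoter windows came from RefSeq. Genes with 1 RPKM or more in at least 3 libraries were tested on log2(RPKM + 1) in limma 3.58.1 (R 4.3.3), in 1 model of 6 groups with an intensity trend. P-values were adjusted over all 10822 genes by the Benjamini-Hochberg method and called under 0.05. An exact permutation test of 3 against 3 cannot go below 0.1. On simulated data of 10822 genes for STZ against Con, 87 of 100 genes changed by 1 on the log2 scale were recovered. Of those changed by 2, 98 of 100 were recovered, and 9 of all 194 calls (4.64%) were unchanged genes. The simulation drew independent normal noise and changed only these genes, in STZ alone. It held no shift over all genes and no library that stands apart. Its shares therefore do not measure the error of the calls in the real data.

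Named genes were the 10 most abundant members, called members by adjusted p (or the 3 with the smallest p), fixed chains, MMPs and TIMPs, and up to 3 called genes of each list. The members and lists were chosen with earlier results of these data known. Alternatives covered scaling, pseudocount, filter, samples in the model, variance trend, replicate number, threshold and leaving out each mouse.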

Additional observations from a re-analysis of the deposited data

How the results depend on the processing

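No called member changed direction under any alternative. Col27a1, Lama3 and Mmp7 in both STZ contrasts, and Col5a3 and Timp3 in STZ+AOS against AOS, were called at an adjusted p under 0.05 under every alternative of scaling, pseudocount, filter, samples, trend, block and omitted mouse that could be computed, although Mmp7 and Lama3 were tested through the groups in which they are high; at the stricter threshold only Col27a1 was left. In STZ against Con the 9 calls (36.1% of all genes) became 5 under median-ratio scaling (24.4%), 5 under quantile normalization (24.8%), 4 of 15 with 1 RPKM in every library (37.5%), 5 of 23 with only the groups compared (25.7%), 1 at an adjusted p of 0.001 or less with a 2-fold change (2.85%) and 11 of 80 without a filter (19.3%). In STZ+AOS against AOS the 12 (37.9%) became 7 under quantile normalization (25.2%), 6 of 22 with only the groups compared (23.9%), 1 at the stricter threshold (2.75%) and 16 of 80 without a filter (21.5%). In A10-FMT against Con the 4 (17.1%) became 1 with 1 RPKM in every library (18.8%), 2 with the 4 groups of the study (18.4%) and 0 at the stricter threshold (0.721%). In Con-FMT against Con the 3 (18.1%) became 1 with 1 RPKM in every library (20%) and 1 at the stricter threshold (0.536%). Percentages are shares of all genes called under the same setting. Leaving out 1 mouse gave 5 to 9 calls in STZ against Con, with 9 without STZ mouse 3 (43.1% of all genes). It gave 5 without Con mouse 3 (26.2%), STZ mouse 1 (26.6%) or STZ mouse 2 (22.4%). In STZ+AOS against AOS it gave 5 to 12, with 5 without AOS mouse 2 (25.6%). There it gave 6 without AOS mouse 3 (27.3%) and 12 without STZ+AOS mouse 1 (34.6%). Such omissions gave 2 to 3 calls in A10-FMT against Con, beside 5.75% to 14.2% of all genes. In Con-FMT against Con they gave 1 to 5, with 1 without Con-FMT mouse 1 (4.49%) and 5 without Con-FMT mouse 2 (18.5%). They gave 0 to 2 in A10-FMT against STZ (0% to 9.25%) and 0 to 1 in Con-FMT against STZ (0% to 12.2%). The causes were not tested. The study describes no pairing, and same-numbered mice deviated together about as much as others. With 3 mice per group such correlations cannot exclude a pairing. The median r was 0.03 over 45 same-numbered pairs and -0.01 over 90 pairs of different number. With the replicate block 7 members were called in STZ against Con (35.2% of all genes) and 12 in STZ+AOS against AOS (37.2%). It called 4 in A10-FMT against Con (15.8%) and 3 in Con-FMT against Con (16.2%). In the other 6 contrasts it called 0 members, beside at most 0.397% of all genes. Depth is known only in relative terms, so the limit it sets on low genes is unknown.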
